A study of Mus musculus with 8 samples.

Results

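The exon junction complex (EJC) and the mRNA export pathway were followed here through 10 genes. These were *Eif4a3*, *Magoh*, *Magohb*, *Rbm8a*, *Casc3*, *Alyref*, *Thoc1*, *Thoc2*, *Nxf1* and *Nxt1*. They came from a list chosen with earlier results of these data known, and were matched by gene symbol. All 10 were found among the 55385 genes counted, and all 10 passed the filter on low counts, as did 17445 genes in all. The study knocked down *Eftud2*, which encodes a GTPase of the U5 small nuclear ribonucleoprotein of the spliceosome, in mouse embryonic stem cells (mESCs). The cells were of the R1 line with a WT genotype, and every group was kept in N2B27 with 2i and Lif on poly-L-ornithine and laminin. Each culture was infected on 2 days with a lentivirus encoding a hairpin and then selected with puromycin for 3 days, so the controls carried a virus and the drug as well. The groups were shRNA1 (n = 3), directed at the untranslated region of *Eftud2*, shRNA2 (n = 3), directed at its coding sequence, and nt-shRNA (n = 2), a hairpin without a target. The labels call the libraries of a group biological replicates. All cells were of a single line and were harvested at a single time.

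The EJC is a protein complex that the spliceosome leaves on an mRNA just upstream of each joined pair of exons, where it marks the transcript as spliced. Its core is the RNA helicase Eif4a3, held closed on the RNA by a heterodimer of Magoh or Magohb with Rbm8a, and joined by Casc3. The complex travels with the mRNA to the cytoplasm, where the nonsense-mediated decay machinery reads it. Export is arranged by the TREX complex, made of THO subunits such as Thoc1 and Thoc2, the helicase Ddx39b and the adaptor Alyref. TREX hands the mRNA to the heterodimer of Nxf1 and Nxt1, which carries it through the nuclear pore.

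RNA was selected by poly(A), and the libraries held between 19569525 and 29871048 counted fragments. Levels are given as CPM, a gene's counts scaled to a common library total, after TMM normalization, which scales libraries so that most genes balance, and 3 counts then corresponded to between 0.105 and 0.148 CPM. *Eftud2* itself was lower in each of the 6 KD libraries (198 to 235 CPM) than in both nt-shRNA libraries (256 and 262 CPM). In edgeR's quasi-likelihood test the log2 fold change of *Eftud2* was -0.18 with shRNA1 (adjusted p = 0.0514) and -0.29 with shRNA2 (adjusted p = 0.00122). The shRNA1 value ranged from -0.065 (adjusted p = 0.498, library size alone) to -0.21 (adjusted p = 0.0206, replicate block) over 15 alternative analyses, of which 5 called it. Of the 10 ES cell markers none was at 0, with a summed level of 7304 to 7448 CPM with nt-shRNA, 7412 to 7669 CPM with shRNA1 and 7435 to 7908 CPM with shRNA2. Single ES cell markers moved both ways, however, with 4 higher and 2 lower with shRNA1, and 6 higher (such as *Klf4*, 1.32, and *Nanog*, 0.76) and 3 lower (*Dppa5a*, -0.96, *Fgf4*, -0.69, and *Pou5f1*, -0.29) with shRNA2. Of 8 fibroblast feeder markers, *Col3a1*, *Lum* and *Dcn* were at or below 0.0494 CPM in every library, and the summed level was 21.3 to 23.1 CPM with nt-shRNA, 22.3 to 25.0 CPM with shRNA1 and 15.4 to 19.3 CPM with shRNA2. Most of that sum was *Pdgfrb* (16.3 and 18.5 CPM with nt-shRNA), which fell with shRNA2 (-0.74, edgeR adjusted p = 3.4e-05), whereas *Col1a2*, at 0.2999 and 0.557 CPM with nt-shRNA, rose with shRNA1 (1.27, adjusted p = 0.0103) and shRNA2 (1.66, adjusted p = 4.3e-04). The 10 markers of differentiated lineages summed to 49.0 to 51.2, 46.8 to 50.3 and 42.1 to 46.8 CPM in the same order, and of the 8 tested 0 rose and 1 fell with shRNA1, and 1 rose and 1 fell with shRNA2. The part of these markers in the results below was not tested, and in bulk RNA fewer cells of a type and less RNA per cell cannot be told apart.

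Each hairpin was compared with nt-shRNA, and shRNA2 with shRNA1, by edgeR's quasi-likelihood test over all 17445 genes. A gene was called where its p-value, adjusted by the Benjamini-Hochberg method over all of these genes, was under 0.05. Of the 10 members, 3 rose and 0 fell with shRNA1, against 13.8% of all genes called higher and 17.1% called lower. With shRNA2, 8 members rose and 1 fell, against 27.2% and 28.7% of all genes. The median log2 fold change of the members was 0.11 with shRNA1 and 0.39 with shRNA2, beside -0.0069 and 0.0040 over all genes tested. The shRNA1 count was 1 without nt-shRNA replicate 1, and with libraries scaled by their size alone it was 7, with a median of 0.22 beside 0.11 over all genes. Both comparisons use the same 2 nt-shRNA libraries, so their results for the members are given side by side and are not independent.

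**Figure D1:**
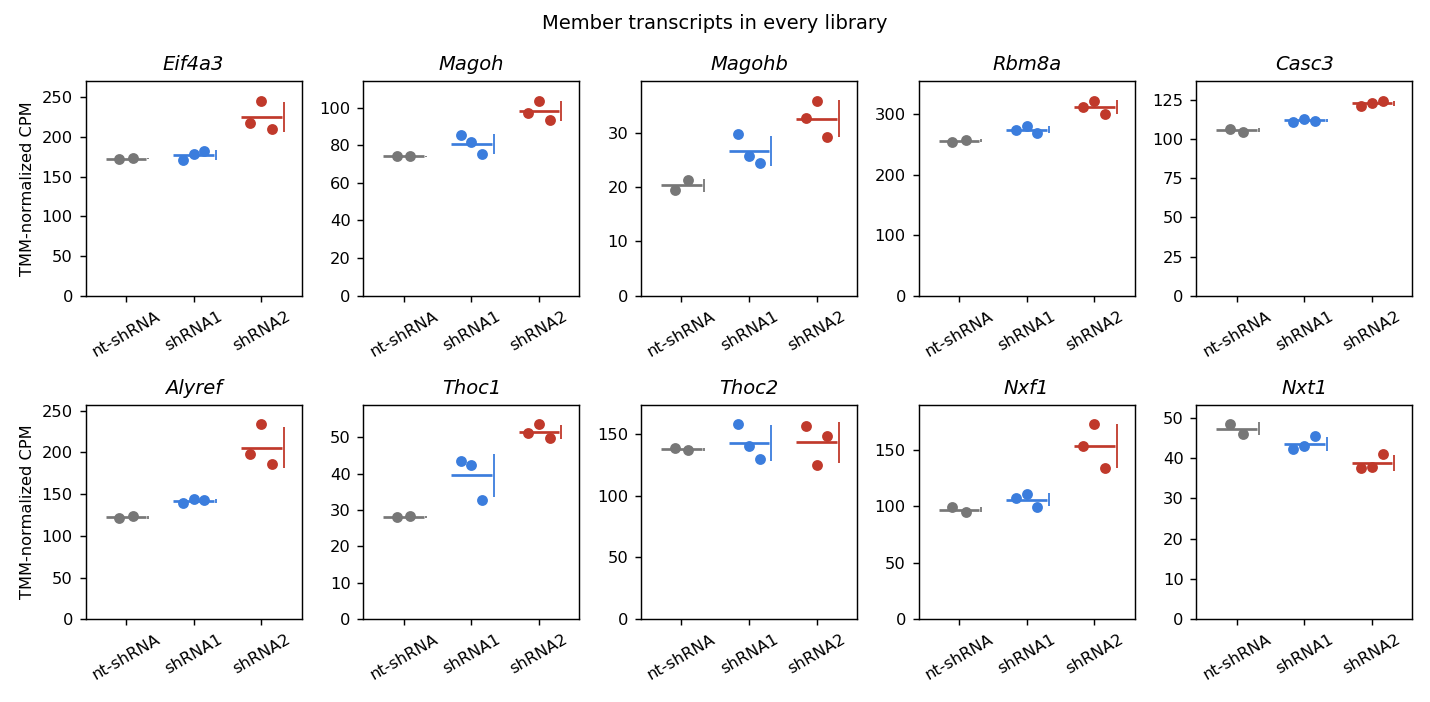
TMM-normalized CPM (vertical axes, from 0) of each member in every library, with points for libraries, horizontal bars for group means and vertical bars for the SD (nt-shRNA n = 2, shRNA1 n = 3, shRNA2 n = 3). In 8 panels all 3 shRNA2 points lie above both nt-shRNA points, in *Nxt1* they lie below them, and in *Thoc2* the groups overlap. The share of all genes separated in this way was not counted.

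The 5 EJC core genes all rose with shRNA2, by 16.2% (*Casc3*) to 60.1% (*Magohb*), whereas with shRNA1 only *Magohb* passed the test. The median log2 fold change of the 5 genes was 0.10 with shRNA1 and 0.38 with shRNA2. In each of the 5 genes every shRNA2 library stood above both nt-shRNA libraries. With shRNA1 that held for 4 of the 5, the exception being *Eif4a3*. The share of all genes separated in this way was not counted, so these counts only describe the members.

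*Eif4a3* (GRCm38 chromosome 11, 119288363-119300089, minus strand) encodes the helicase that clamps the complex onto RNA. It was counted at 172 and 173 CPM with nt-shRNA, at 170.5, 179 and 182 CPM with shRNA1, and at 218, 246 and 210.3 CPM with shRNA2. The shRNA1 libraries lay on either side of the controls, and the shRNA2 libraries lay above all others. The log2 fold change was 0.04 (SE 0.0673, adjusted p = 0.717, edgeR) with shRNA1 and 0.38 (SE 0.0676, adjusted p = 9.9e-05) with shRNA2, the latter an increase of 30.1%. Of the 1410 stretches of 100 bases (a read's length) in its longest coding transcript, 6.31% also occur in other annotated genes, among them the *Eif4a3*-like genes *Gm5580* and *Gm8994*. Reads that align to several places were left out of the counts, so reads from those stretches may be missing.

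*Rbm8a* (chromosome 3, 96629933-96633791, plus strand) encodes the partner of Magoh and Magohb in the heterodimer. Its level was 254 and 258 CPM with nt-shRNA, 273, 281 and 269 CPM with shRNA1, and 311, 322 and 299.9 CPM with shRNA2. The 3 groups did not overlap, and their order was nt-shRNA, shRNA1, shRNA2. In the edgeR test the log2 fold change was 0.10 (SE 0.0582, adjusted p = 0.211) with shRNA1 and 0.28 (SE 0.0584, adjusted p = 4.5e-04) with shRNA2.

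*Casc3* (chromosome 11, 98804905-98833814, plus strand), whose product binds the clamped helicase, changed least of the core genes called with shRNA2. It was counted at 107 and 105 CPM with nt-shRNA, at 111, 113 and 112 CPM with shRNA1, and at 121, 123 and 125 CPM with shRNA2. Again the 3 groups did not overlap, with a coefficient of variation within groups of 1.04% to 1.39%. The log2 fold change was 0.08 (SE 0.0574, adjusted p = 0.299, edgeR) with shRNA1 and 0.22 (SE 0.0575, adjusted p = 0.00351) with shRNA2. Without nt-shRNA replicate 2 the shRNA2 call was lost (adjusted p = 0.0507). Of its exon bases 11.5% lie in exons of *Msl1* or of the antisense gene *Gm12359* as well, and 10.2% of the stretches of 100 bases in its longest coding transcript also occur in *Gm12359*. With shRNA2 *Msl1* stood at 0.01 in log2 (adjusted p = 0.898) and *Gm12359*, counted at 0.398 CPM with nt-shRNA, at 0.85 (adjusted p = 0.0596).

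*Magoh* (chromosome 4, 107879755-107887424, plus strand) and *Magohb* (chromosome 6, 131284388-131293244, minus strand) encode near-identical proteins that take the same place in the EJC. Their coding sequences, 441 and 447 bases long, were identical at 357 of 441 aligned bases (81.0%). The stretch of 150 bases in which they are most alike, coding bases 179-328 of *Magoh* and 185-334 of *Magohb* in GENCODE M21 (GRCm38), is shown because it bears on whether a read can be given to the right gene. Capitals mark the 23 bases at which the copies differ.
Magoh: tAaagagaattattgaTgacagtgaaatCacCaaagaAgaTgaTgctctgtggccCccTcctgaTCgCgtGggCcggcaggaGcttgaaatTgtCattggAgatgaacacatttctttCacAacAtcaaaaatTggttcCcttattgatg
Magohb: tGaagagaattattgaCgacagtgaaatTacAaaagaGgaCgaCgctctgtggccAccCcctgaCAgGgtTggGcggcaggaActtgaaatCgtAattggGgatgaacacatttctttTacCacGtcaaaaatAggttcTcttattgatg
Even here the differing bases are spread along the whole stretch, and the longest identical run in the alignment was 17 bases. No stretch of 100 bases of the longest coding transcript of either gene occurs in another annotated gene, and the other transcripts were not searched.

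*Magoh* was counted at 74.4 and 74.1 CPM with nt-shRNA, at 85.4, 81.7 and 75.2 CPM with shRNA1, and at 97.1, 104 and 93.3 CPM with shRNA2. The 3 groups did not overlap, although the lowest shRNA1 library lay close to the controls. On the log2 scale the fold change was 0.12 (SE 0.0695, adjusted p = 0.201, edgeR) with shRNA1 and 0.40 (SE 0.0696, adjusted p = 7.4e-05) with shRNA2, the latter an increase of 32.1%.

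*Magohb* had the larger log2 fold change of the copies with each hairpin, a difference that was not tested in the fit. It was counted at 19.5 and 21.2 CPM with nt-shRNA, at 29.7, 25.8 and 24.4 CPM with shRNA1, and at 32.7, 35.9 and 29.1 CPM with shRNA2. Every KD library was above both controls, and the highest shRNA1 library was above the lowest shRNA2 library. The log2 fold change was 0.39 (SE 0.104, adjusted p = 0.0080, edgeR) with shRNA1 and 0.68 (SE 0.103, adjusted p = 1.7e-05) with shRNA2. Without nt-shRNA replicate 1 the shRNA1 call was lost (adjusted p = 0.102). Of its 1720 exon bases, 520 also lie in the pseudogene *Gm44958*, counted at 0.0549 CPM with nt-shRNA.

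The counts of both copies were also set against each other within each library, which removes the scaling between libraries. *Magohb* made up 20.8% (exact 95% binomial interval 19.2% to 22.4%) and 22.3% (20.7% to 23.9%) of the summed *Magoh* and *Magohb* counts with nt-shRNA. The share was 25.8%, 24.01% and 24.5% with shRNA1 and 25.2%, 25.7% and 23.8% with shRNA2. Both controls were below all 6 KD libraries, and the hairpins overlapped. The interval of the higher control overlapped that of every KD library except shRNA1 replicate 1 and shRNA2 replicate 2. It was 22.2% to 25.9% in shRNA1 replicate 2 and 22.2% to 25.5% in shRNA2 replicate 3, for example. The means were 21.5% ± 1.07 (SD, n = 2), 24.8% ± 0.935 (SD, n = 3) and 24.9% ± 0.990 (SD, n = 3). These intervals cover counting error only, and the share was not tested.

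**Figure D2:**
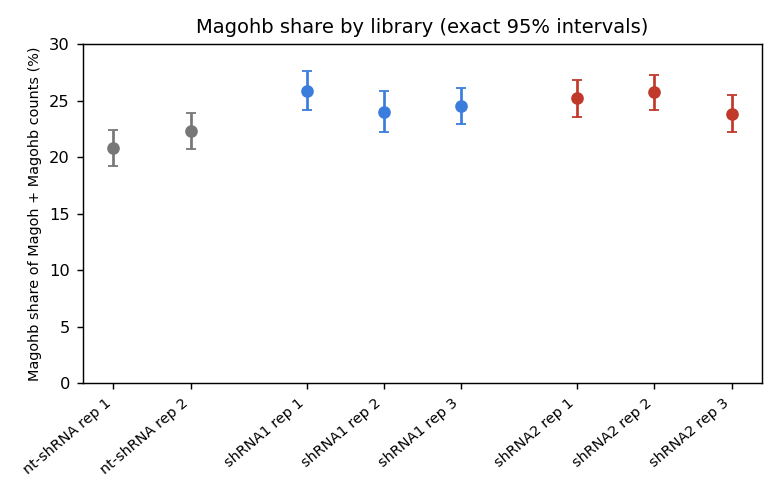
Share of *Magohb* in the summed *Magoh* and *Magohb* counts (%, vertical axis from 0) in each of the 8 libraries, with exact 95% binomial intervals. The nt-shRNA libraries stand at 20.8% and 22.3%, and the 6 KD libraries lie between 23.8% and 25.8%.

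The 5 export genes were less uniform than the EJC core. *Thoc1*, *Alyref* and *Nxf1* rose with shRNA2 by 82.7%, 68.3% and 57.9%, *Thoc2* was not called, and *Nxt1* fell by 18.0%. With shRNA1, *Thoc1* and *Alyref* passed the test. The median log2 fold change of the 5 genes was 0.12 with shRNA1 and 0.66 with shRNA2.

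*Alyref* (chromosome 11, 120592121-120598365, minus strand) encodes the adaptor that couples spliced mRNA to Nxf1. It was counted at 121 and 123 CPM with nt-shRNA, at 139, 144 and 143 CPM with shRNA1, and at 198, 234 and 186 CPM with shRNA2. The 3 groups were well apart, with the widest spread in the shRNA2 group (SD 24.8 CPM, n = 3). Its log2 fold change was 0.21 (SE 0.0768, adjusted p = 0.0411, edgeR) with shRNA1 and 0.75 (SE 0.0775, adjusted p = 1.6e-07) with shRNA2. The shRNA1 call was lost on leaving out any shRNA1 library, either nt-shRNA library or shRNA2 replicate 1, with adjusted p up to 0.198.

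*Thoc1* (chromosome 18, 9957906-9995489, plus strand), a THO subunit, had the largest log2 fold change of the members with each hairpin. Its level was 28.0 and 28.4 CPM with nt-shRNA, 43.5, 42.3 and 32.8 CPM with shRNA1, and 51.2, 53.5 and 49.7 CPM with shRNA2. The 3 groups did not overlap, and shRNA1 replicate 3 lay nearer the controls than the other two. The log2 fold change was 0.48 (SE 0.0987, adjusted p = 0.00104, edgeR) with shRNA1 and 0.87 (SE 0.0985, adjusted p = 5.0e-07) with shRNA2. Of its 8932 exon bases, 24.3% lie in exons of the antisense gene *Usp14* as well. Of the 4035 stretches of 100 bases in its longest coding transcript, 2070 (51.3%) also occur in *Usp14*, the highest share of any member. The counting used no strand, so fragments of the 2 genes in that stretch cannot be told apart and were left out. *Usp14* stood at 134 CPM with nt-shRNA, and its own log2 differences were not called by edgeR, at 0.17 (adjusted p = 0.0748) for the first hairpin and 0.13 (adjusted p = 0.132) for the second.

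*Thoc2* (chromosome X, 41794991-41920674, minus strand), the scaffold subunit of THO, was the only member called in none of the 3 comparisons. It was counted at 138 and 137 CPM with nt-shRNA, at 158, 140.3 and 129 CPM with shRNA1, and at 156, 125 and 148 CPM with shRNA2. The controls lay within the range of each KD group. In log2 the fold change was 0.05 (SE 0.0859, adjusted p = 0.705, edgeR) with shRNA1 and 0.06 (SE 0.0860, adjusted p = 0.603) with shRNA2.

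*Nxf1* (chromosome 19, 8757073-8770922, plus strand) encodes the export receptor. Its level was 99.0 and 95.4 CPM with nt-shRNA, 107, 111 and 99.5 CPM with shRNA1, and 154, 173 and 134 CPM with shRNA2. The shRNA2 libraries stood well above all others, and the lowest shRNA1 library was just above the higher control. Its log2 fold change was 0.12 (SE 0.0827, adjusted p = 0.284, edgeR) with shRNA1 and 0.66 (SE 0.0831, adjusted p = 1.9e-06) with shRNA2. *Nxf1* was called with shRNA1 when libraries were scaled by their size alone (0.24, adjusted p = 0.0326) and with the replicate block (0.19, adjusted p = 0.0370).

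*Nxt1* (chromosome 2, 148672601-148676027, plus strand) encodes the small cofactor that Nxf1 needs to bind the pore, and it moved the other way. It was counted at 48.4 and 46.1 CPM with nt-shRNA, at 42.2, 42.9 and 45.5 CPM with shRNA1, and at 37.6, 37.7 and 40.9 CPM with shRNA2. Both controls were above every KD library, and every shRNA1 library was above every shRNA2 library. On the log2 scale the fold change was -0.12 (SE 0.0728, adjusted p = 0.237, edgeR) with shRNA1 and -0.29 (SE 0.0733, adjusted p = 0.0027) with shRNA2. With libraries scaled by their size alone the shRNA1 value was -0.0029 (adjusted p = 0.982, edgeR). The receptor's subunits were therefore called in opposite directions with shRNA2.

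**Figure D3:**
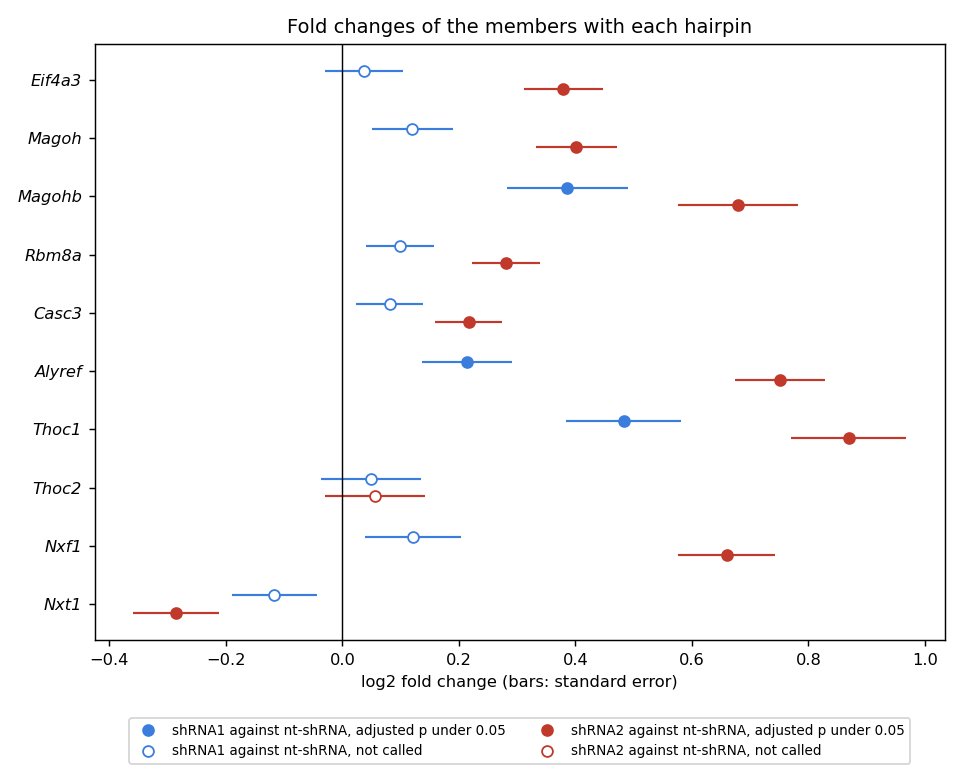
Log2 fold change of each member against nt-shRNA (horizontal axis) with its standard error, in blue for shRNA1 and red for shRNA2, filled where the adjusted p was under 0.05. The shRNA2 points run from -0.29 (*Nxt1*) to 0.87 (*Thoc1*), and 3 shRNA1 points are filled (*Magohb*, *Alyref* and *Thoc1*).

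The promoters of *Alyref* and *Nxt1* are shown because these export genes were called in opposite directions with shRNA2. The sequences are the 250 bases before the annotated start, from RefSeq on GRCm38.p6, for *Alyref* chr11:120598366-120598615 on the minus strand (74.0% G or C) and for *Nxt1* chr2:148672365-148672614 on the plus strand (54.4% G or C). Each was searched on both strands for the ETS core (CCGGAAG), the YY1 core (ATGGCGGC), the NRF1 core (GCGCATGC), the CCAAT box (CCAAT), the GC box (GGGCGG), the E-box (CACGTG) and the TATA box (TATAAA), and capitals mark the matches of the ETS core and the CCAAT box.
Alyref: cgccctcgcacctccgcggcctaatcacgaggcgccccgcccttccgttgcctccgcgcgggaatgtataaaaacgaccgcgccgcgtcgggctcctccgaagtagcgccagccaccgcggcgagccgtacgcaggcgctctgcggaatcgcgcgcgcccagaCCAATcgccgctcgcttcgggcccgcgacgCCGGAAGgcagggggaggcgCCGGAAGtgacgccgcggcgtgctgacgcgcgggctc
Nxt1: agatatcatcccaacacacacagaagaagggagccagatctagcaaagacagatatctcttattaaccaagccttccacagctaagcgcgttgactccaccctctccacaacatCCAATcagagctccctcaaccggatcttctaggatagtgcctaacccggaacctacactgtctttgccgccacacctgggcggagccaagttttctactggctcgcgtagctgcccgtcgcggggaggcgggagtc
The *Alyref* promoter held the ETS core at 57 and 37 bases before the start, and the CCAAT box, the GC box and the TATA box in 1 place each. The *Nxt1* promoter held the CCAAT box and the GC box. The ETS core occurs in 6.91% of all 32851 promoters of the same length, the CCAAT box in 33.8%, the GC box in 32.7% and the TATA box in 12.4%. Of the 7 members matched in the promoter table (*Eif4a3*, *Magoh*, *Magohb*, *Alyref*, *Thoc2*, *Nxf1* and *Nxt1*), the ETS core was found in 1, the TATA box in 1, the CCAAT box in 3 and the GC box in 5. The YY1 core, the NRF1 core and the E-box were found in 0 of the 7, and occur in 1.03%, 2.26% and 6.02% of all promoters. No match overlapped another in the sequences shown. A match of letters is a description of the sequence, not a binding site.

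Direct comparison of the hairpins asked whether the members differed between the KD groups without resting on the shared controls. *Eftud2* itself was not called between the hairpins (log2 fold change -0.11, adjusted p = 0.164, edgeR), and its KD groups overlapped. With shRNA2, 8 members were higher than with shRNA1 and 0 were lower, against 16.9% of all genes called higher and 18.7% called lower. The largest differences in log2 were those of *Alyref* and *Nxf1*, and all 5 EJC core genes were among the 8. The median log2 fold change of the members was 0.29, beside -0.00082 over all genes tested.

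Among the EJC core genes, the log2 fold change of shRNA2 against shRNA1 was 0.34 (SE 0.0602) for *Eif4a3*, 0.28 (SE 0.0620) for *Magoh*, 0.29 (SE 0.0907) for *Magohb*, 0.18 (SE 0.0520) for *Rbm8a* and 0.14 (SE 0.0514) for *Casc3*. Their edgeR adjusted p-values were 2.7e-04, 0.00175, 0.0169, 0.0103 and 0.0472 in the same order. In 4 of these 5 genes the KD groups did not overlap, and in *Magohb* they did, but the share of all genes without overlap was not counted. *Gm12359*, antisense to *Casc3*, was also higher with shRNA2 (0.96, adjusted p = 0.0382). The *Casc3* call was lost in 12 of 15 alternative analyses (adjusted p up to 0.226), and that of *Magohb* was lost on leaving out shRNA1 replicate 2 or 3 or shRNA2 replicate 1 or 2 (adjusted p up to 0.0945).

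For *Alyref* and *Nxf1* the log2 fold change of shRNA2 against shRNA1 was 0.54 in each, with an SE of 0.0682 and 0.0736 and an edgeR adjusted p of 1.3e-05 and 2.6e-05. *Thoc1* was higher by 0.39 (SE 0.0858, adjusted p = 0.00187). *Thoc2* differed by 0.01 (SE 0.0772, adjusted p = 0.956). *Nxt1* was lower in all 3 shRNA2 libraries than in any shRNA1 library, by -0.17 (SE 0.0669, adjusted p = 0.0563), and it passed the threshold in 4 of 15 alternative analyses.

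The order of the group means was nt-shRNA, then shRNA1, then shRNA2 in 9 members and the reverse in *Nxt1*. The share of all genes with either order was not counted, so this only describes the members. The step from nt-shRNA to shRNA1 passed the test in 3 members and the step from shRNA1 to shRNA2 in 8, all upward. Of all genes, 13.8% and 16.9% were called higher at these steps. In *Thoc2* the neighbours in that order did not differ beyond their spread, nor did *Eif4a3* with nt-shRNA and shRNA1 (173 and 177 CPM). The highest mean was 1.83 times the lowest in *Thoc1*, 1.68 times in *Alyref*, 1.601 times in *Magohb*, 1.58 times in *Nxf1* and between 1.04 and 1.32 times in the other 6.

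Levels were compared between members per kilobase of all annotated exons, since longer genes collect more fragments, and again per kilobase of the longest coding transcript, a length chosen after seeing the data. With nt-shRNA and the exon length, *Magoh* was highest at 96.4 ± 0.311 CPM per kilobase (SD, n = 2), followed by *Eif4a3* at 81.4 ± 0.458 and *Rbm8a* at 79.7 ± 0.756. The order among these 3 was not stable, since per kilobase of transcript *Eif4a3* was highest at 114 ± 0.645, before *Magoh* at 107 ± 0.346. *Casc3* and *Magohb* stood below these 3 on both scales. Per kilobase of exon they were at 24.6 ± 0.306 and 11.8 ± 0.709, but per kilobase of transcript at 26.7 ± 0.332 and 26.5 ± 1.59, which differ by less than the SD. The lengths include stretches shared with other genes, whose fragments were left out of the counts. Of the stretches of 100 bases, 10.2% were shared in *Casc3* and 0% in *Magohb*, so this likeness rests on the full length.

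Of the export genes, per kilobase of exon, *Nxt1* stood at 42.3 ± 1.46 CPM per kilobase and its partner *Nxf1* at 22.0 ± 0.576 (SD, n = 2). With shRNA2 these were 34.7 ± 1.70 and 34.7 ± 4.36 (SD, n = 3). Per kilobase of transcript the pattern was the reverse, with *Nxt1* and *Nxf1* alike with nt-shRNA (42.3 ± 1.46 and 41.8 ± 1.097) and apart with shRNA2 (34.7 ± 1.70 and 66.0 ± 8.30), so the order of the 2 genes rests on the length chosen. Per kilobase of exon, *Alyref* stood at 31.8 ± 0.435 with nt-shRNA and 53.6 ± 6.47 with shRNA2. *Thoc2* and *Thoc1* were the lowest of the export genes on both scales, per kilobase of exon at 10.9 ± 0.1001 and 3.15 ± 0.0341 with nt-shRNA. The transcript length of *Thoc1* was not reduced for the 51.3% of its stretches of 100 bases shared with *Usp14*. Its level per kilobase is therefore understated. A gene with many partial transcripts appears lower per kilobase of exon than per kilobase of its main transcript. GENCODE M21 lists 13 transcripts for *Thoc1*, of which 11 are retained-intron forms, and 7 for *Magohb*, of which 3 are marked for nonsense-mediated decay and 2 retain an intron. *Thoc2* has 16 annotated transcripts (3 and 5 of these kinds) and *Nxf1* has 10 (1 and 3). The gene counts sum over all of these forms.

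**Figure D4:**
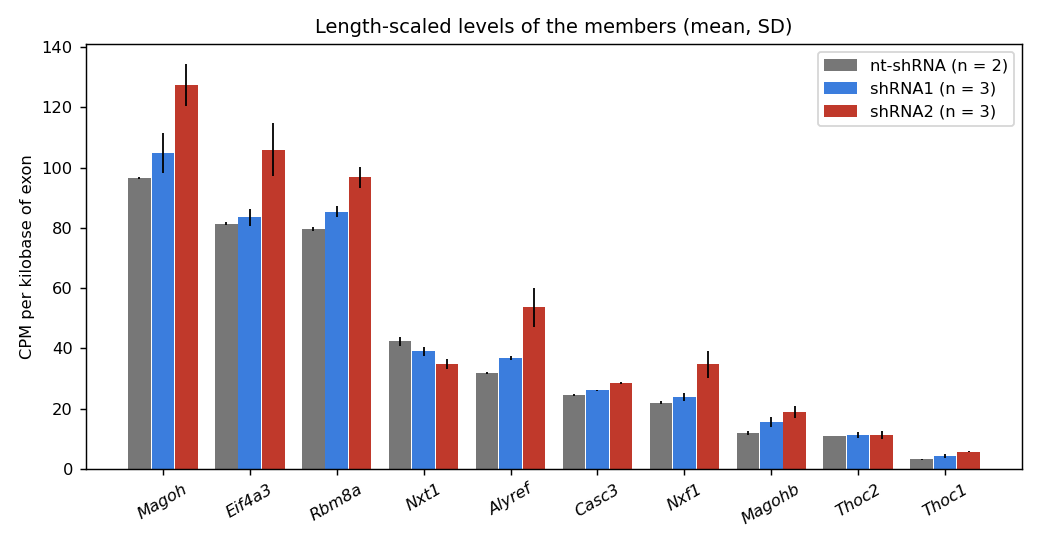
Mean CPM per kilobase of all annotated exons (vertical axis, from 0) of each member, ordered by its nt-shRNA level, with SD error bars (nt-shRNA n = 2, shRNA1 n = 3, shRNA2 n = 3). *Magoh*, *Eif4a3* and *Rbm8a* stand highest (79.7 to 96.4 with nt-shRNA) and *Thoc1* lowest (3.15). Fragments shared with other genes were left out of the counts, and the lengths were not reduced for them.

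The other genes of the pathway were taken as lists by role, and each is described by its count and median. With shRNA1, between 0 and 3 genes of a list were called in either direction. With shRNA2 more rose than fell in each list, and the median was above 0 in each. For comparison with these counts, 13.8% of all genes were called higher and 17.1% lower with shRNA1, and 27.2% and 28.7% with shRNA2.

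Among 12 factors that assemble, remove or accompany the EJC, 7 rose and 1 fell with shRNA2, and the median log2 fold change was 0.18. With shRNA1, 1 rose and 1 fell. *Cwc22*, which brings Eif4a3 to the spliceosome, rose by 0.67 with shRNA1 and 0.91 with shRNA2 (edgeR adjusted p = 1.3e-09). *Upf3a*, a nonsense-mediated decay factor that binds the EJC, rose by 0.53 with shRNA2 (adjusted p = 3.6e-06). *Rnps1*, a peripheral EJC protein, was lower with both hairpins, at -0.18 (adjusted p = 0.0259) and -0.32 (adjusted p = 1.4e-04).

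Among 16 further TREX subunits and Nxf1 partners or relatives, 9 rose and 1 fell with shRNA2 (median 0.15), and 3 rose and 0 fell with shRNA1. *Ddx39b*, the helicase that works with Alyref and THO, rose by 0.27 with shRNA1 and 0.64 with shRNA2 (edgeR adjusted p = 7.0e-08). *Ddx39a*, its close relative, rose by 0.54 with shRNA2 (adjusted p = 5.1e-06). *Nxf2*, a relative of *Nxf1*, rose by 1.70 and 1.499 (adjusted p = 1.6e-06 and 1.4e-06). Furthest against the median was *Nxf7*, with -0.34 under shRNA2 (adjusted p = 0.319).

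All 4 genes tested of the nuclear cap-binding complex and its partners rose with shRNA2 (median 0.56), and 2 of them rose with shRNA1. *Ncbp2*, which holds the cap, rose by 0.24 with shRNA1 and 0.87 with shRNA2 (edgeR adjusted p = 3.8e-08). *Srrt*, which links the cap to RNA processing, rose by 0.23 and 0.65 (adjusted p = 0.0198 and 3.2e-07). *Phax*, an adaptor for export of small nuclear RNAs, rose by 0.47 with shRNA2 (adjusted p = 8.2e-05).

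Of the 7 genes of TREX-2, which ties transcription to the nuclear pore, 3 rose and 1 fell with shRNA2 (median 0.09), and 0 rose and 3 fell with shRNA1. *Mcm3ap*, its scaffold, had 0.74 with shRNA2 (edgeR adjusted p = 4.8e-07) and *Eny2* had 0.27 (adjusted p = 0.00432). *Sem1* fell with both hairpins (-0.26 and -0.21, adjusted p = 0.00565 and 0.00966). Of 11 nuclear pore factors that act at mRNA release, 8 rose and 2 fell with shRNA2 (median 0.27), and 0 rose and 1 fell with shRNA1. *Ddx19a*, a helicase that strips export factors at the pore, rose by 0.50 (adjusted p = 5.6e-06), *Nup153* by 0.40 (adjusted p = 5.2e-05) and *Nup42* by 0.62 (adjusted p = 1.1e-04). *Rae1* was lower, at -0.29 (adjusted p = 2.8e-04).

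Between the hairpins, 3 of the 4 cap-binding genes, 7 of the 11 pore factors, 7 of the 12 EJC partners, 5 of the 16 TREX genes and 3 of the 7 TREX-2 genes were higher with shRNA2, against 16.9% of all genes. In the same order 0, 1, 1, 2 and 0 were lower, against 18.7% of all genes. The medians were 0.40, 0.21, 0.20, 0.10 and 0.17 in log2.

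**Figure D5:**
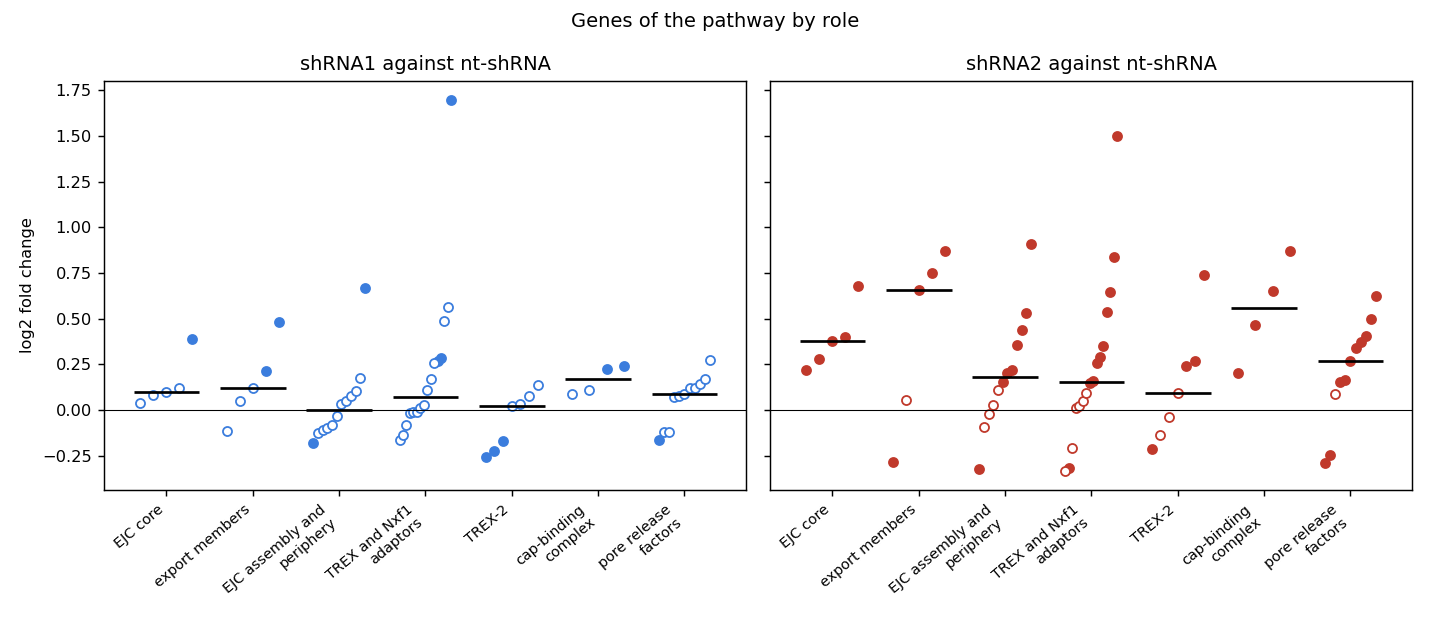
Log2 fold change against nt-shRNA (vertical axis) of every gene tested, by role, with shRNA1 on the left and shRNA2 on the right, filled points for an adjusted p under 0.05 and black bars for medians. The list medians run from -0.00 to 0.17 with shRNA1 and from 0.09 to 0.66 with shRNA2.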

How the data were processed

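Per the labels and the study's methods, poly(A) RNA of R1 mESCs was sequenced as paired reads. STAR alignments to mm10 (GRCm38) were turned by the authors into raw counts of fragments on the exons of GENCODE M24 genes (featureCounts 1.6.2) and deposited for 55385 genes. Strand was not used, and fragments were left out where they aligned to several places or fell in several genes. Symbols came from GENCODE M21 (55144 IDs), with RefSeq synonyms for 5 further genes and the nearest start for 1 symbol with several IDs.

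The counts of 8 libraries entered R 4.3.3 and edgeR 4.0.16 (limma 3.58.1), with filterByExpr (minimum count 10), TMM, glmQLFit and glmQLFTest and a mean for every group. Calls required an adjusted p (Benjamini-Hochberg, over 17445 genes) under 0.05. The study's own test, DESeq2 (1.42.0), was an alternative, as were its size factors, library size alone, other filters, only the groups compared, a replicate block and each library left out. SEs were derived from the F statistic. Depth was 19569525 to 29871048 counts per library, and 3 counts were 0.105 to 0.148 CPM. Chi-square statistics per gene between replicates were 3.00 to 11.6, so no library repeated another. The code was tested on simulated data.

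The genes named include the 10 members, *Eftud2*, all relatives and overlapping genes. Each list by role gave its 3 called genes of lowest adjusted p with shRNA2 and the one furthest opposite to its median. Markers of cell types were named outside this rule. The members and lists were chosen with earlier results of these data known. Sequences were read and compared with Python 3.11.15 and Biopython 1.88, and figures were drawn with matplotlib 3.10.9.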

Additional observations from a re-analysis of the deposited data

How the results depend on the processing

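Direction and call were kept in all 15 alternatives for *Eif4a3*, *Magoh*, *Magohb*, *Rbm8a*, *Alyref*, *Thoc1*, *Nxf1* and *Nxt1* with shRNA2 against nt-shRNA, where 8 to 9 members were called. With shRNA1 against nt-shRNA, 3 members were called and all were higher, but 7 were called, all higher, with library size alone, and their median log2 fold change was then 0.22. That scaling also moved the median of all genes to 0.11, and 70.5% of calls were then higher instead of 44.7%. With shRNA2 it moved that median to 0.09 and the share to 58.9% instead of 48.7%. *Magoh*, *Rbm8a*, *Casc3* and *Nxf1* were the members gained with shRNA1. Leaving out 1 library at a time, between 1 and 3 members were called with shRNA1, and 1 without nt-shRNA replicate 1, where *Thoc1* remained. Of shRNA2 against shRNA1, 0 members were called lower, and 1 (*Nxt1*) with library size alone, at least 10 counts in every library, or the replicate block. Between 0 and 1 were called lower on leaving out 1 library, the 1 without shRNA2 replicate 3. The cause was not tested.

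The labels number replicates in each group, and the deviations of same-numbered libraries had correlations of -0.035 to 0.096, none of 7 over 0.1. Between shRNA1 and shRNA2 they were 0.045, 0.063 and 0.096, above those of differently numbered libraries (-0.10 to 0.041). The main fit did not take the numbers as pairs, but these values do not settle whether they are. With the replicate block, 4 members were called with shRNA1 (*Nxf1* added, 0.19, adjusted p = 0.0370, edgeR), 9 with shRNA2, and 9 between the hairpins (*Nxt1* added, -0.17, adjusted p = 0.0416). With 2 control libraries, the spread of the controls rests mainly on that of the other groups. The members' lowest level was 19.5 CPM (*Magohb*, 520 to 797 counts per library, the fewest of the core genes), and how far depth limits the tests was not tested.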

Other observations

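Several relatives of the members in sequence had larger differences than the members themselves. Of 11 such relatives tested, 4 rose and 0 fell with shRNA1 (against 13.8% and 17.1% of all genes), and 6 rose and 0 fell with shRNA2 (against 27.2% and 28.7%). *Alyref2*, *Nxt2*, *Nxf2*, *Nxf3* and *Nxf7* were also counted above among the TREX subunits and Nxf1 partners or relatives. *Eif4a3l1* (*Gm8994*), an *Eif4a3*-like gene, was counted at 11.7 ± 1.78 CPM with nt-shRNA (SD, n = 2), 42.3 ± 3.68 with shRNA1 and 33.3 ± 2.51 with shRNA2 (SD, n = 3). *Eif4a3l2* (*Gm5580*) stood at 4.87 ± 0.431, 18.9 ± 2.27 and 14.5 ± 1.83 CPM. Their log2 fold changes were 1.85 and 1.96 with shRNA1 and 1.504 and 1.57 with shRNA2 (edgeR adjusted p of 3.3e-08 or less in each). Both were lower with shRNA2 than with shRNA1, by -0.35 (adjusted p = 0.00459) and -0.38 (adjusted p = 0.0114), whereas *Eif4a3* was higher with shRNA2. *Thoc2l*, a *Thoc2*-like gene, stood at 15.9 ± 1.22, 25.6 ± 2.48 and 43.6 ± 4.04 CPM, and rose by 0.68 with shRNA1 and 1.45 with shRNA2 (edgeR adjusted p = 7.3e-05 and 1.5e-09), while *Thoc2* was not called. Reads that fit a member and its copy equally well were left out, and how many was not measured.

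Of the other relatives, *Alyref2* stood at a log2 difference of 0.49 with shRNA1 (edgeR adjusted p = 0.120) and 0.84 with shRNA2 (adjusted p = 0.00403), *Nxf2* 1.70 and 1.499, and *Nxf3* 0.26 (adjusted p = 0.146) and 0.35 (adjusted p = 0.0285). *Nxf7* was lower with shRNA2 than with shRNA1, by -0.90 (adjusted p = 0.00763). *Eif4a1*, *Eif4a2*, *Rbm8a2* and *Nxt2* were called in no comparison.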
